A study of Mus musculus with 4 samples.

Results

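The nuclear pore complex and the soluble factors of nuclear transport were followed in sorted cells of the regenerated mouse olfactory epithelium that lacked Lamin B1 (Lmnb1), a protein of the nuclear lamina, or carried 1 intact allele. The set was a list of 35 genes given by function as nucleoporins, importins, exportins and Ran cycle proteins. Of these, 34 were found by symbol among the 23337 genes of the count tables, and all 34 passed the filter on low counts and were tested. The remaining member, Ndc1, which anchors the pore in the membrane, was present only under its older symbol Tmem48 and was counted with the other transport genes.

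Libraries were made from 4 mice, 1 mouse per sample, of mixed strain background. The 2 mutant samples (Lmnb1-/-) and the 2 control samples (Lmnb1+/-) were Tomato-positive cells isolated by flow sorting 4 weeks after 50 mg/kg methimazole, a drug that destroys the olfactory epithelium and sets off its regeneration. All mice carried Cre under the Keratin 5 promoter, a floxed Lmnb1 allele and a Cre-dependent tdTomato reporter. In the olfactory epithelium this Cre acts in horizontal basal cells, a reserve stem cell, so the sorted cells were a mixture of stem cells and of the progenitors, neurons and supporting cells that descend from them. The controls were heterozygous, not wild type. One control and one mutant formed each of 2 experimental groups, which differed from each other in treatment, parents, age and sex, per the design text of the series, whereas these were shared within a group. Samples are named by genotype and group (control 1, mutant 1, control 2, mutant 2). The age of the mice was not given in the labels.

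The nuclear pore is the gated channel through which molecules cross the nuclear envelope. Its scaffold consists of an outer ring built from the Y-shaped Nup107-Nup160 complex and an inner ring around the channel, both held to the envelope by membrane nucleoporins, and nucleoporins with phenylalanine-glycine repeats fill the channel. Filaments reach into the cytoplasm and a basket reaches into the nucleus, where it contacts the lamina and chromatin. Importins and exportins carry cargo through the channel, and the gradient of GTP-bound Ran sets the direction of transport. Pores are embedded in the same envelope that the lamina lines, and Nup133 and Nup210 are known for roles in neural and muscle differentiation, respectively.

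Promoters are shown for the 2 members with the smallest p-values between genotypes (Nup210 and Nup133) and for the 2 with the largest difference between experimental groups (Ranbp2 and Tpr). Each is the 250 bases before the RefSeq gene start on mouse build GRCm38, 5′ to 3′ on the strand of the gene, and capitals mark matches to the motifs described after the sequences. The windows are chr6:91116827-91117076 on the minus strand for Nup210, chr8:123949266-123949515 on the minus strand for Nup133, chr10:58446602-58446851 on the plus strand for Ranbp2 and chr1:150392588-150392837 on the plus strand for Tpr.
Nup210: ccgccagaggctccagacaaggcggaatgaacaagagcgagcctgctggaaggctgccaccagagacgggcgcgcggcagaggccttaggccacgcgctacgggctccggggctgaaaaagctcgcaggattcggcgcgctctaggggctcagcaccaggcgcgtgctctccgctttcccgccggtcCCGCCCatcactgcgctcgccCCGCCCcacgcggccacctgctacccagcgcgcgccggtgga
Nup133: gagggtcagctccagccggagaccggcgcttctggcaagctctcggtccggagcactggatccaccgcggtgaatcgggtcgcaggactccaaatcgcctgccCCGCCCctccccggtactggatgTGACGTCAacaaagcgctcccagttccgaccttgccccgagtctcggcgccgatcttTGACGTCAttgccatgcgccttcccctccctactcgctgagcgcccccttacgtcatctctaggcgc
Ranbp2: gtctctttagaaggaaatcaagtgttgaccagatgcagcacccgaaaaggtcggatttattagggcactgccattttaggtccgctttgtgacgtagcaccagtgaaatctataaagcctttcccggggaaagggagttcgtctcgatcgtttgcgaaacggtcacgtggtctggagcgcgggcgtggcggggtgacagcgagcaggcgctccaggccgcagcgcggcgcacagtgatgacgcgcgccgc
Tpr: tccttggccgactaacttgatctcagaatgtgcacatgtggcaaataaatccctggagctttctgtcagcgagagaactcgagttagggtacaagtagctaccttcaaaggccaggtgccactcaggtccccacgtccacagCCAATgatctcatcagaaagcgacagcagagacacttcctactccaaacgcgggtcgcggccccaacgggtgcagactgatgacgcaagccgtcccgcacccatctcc

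These motifs were chosen after the expression values had been seen and were searched on both strands. The Nup133 window held 2 copies of the palindrome TGACGTCA, the cAMP response element, which start 124 and 67 bases before the gene start, and 1 GC box (GGGCGG). The Nup210 window held 2 GC boxes, the Tpr window held 1 CCAAT box, and the Ranbp2 window held no match to any motif searched. Over the 30 members with a RefSeq promoter, the cAMP response element was present in 2 (Nup133 and Nup214), or 6.67%, against 1.77% of 27025 promoters of the same length. GCGCATGCG, from the palindrome bound by NRF1, was present in 4 (Nup107, Nup50, Nup62 and Ran), or 13.3%, against 1.64% of all promoters. The GC box was present in 63.3% of members and 35.4% of all promoters, CCAAT in 43.3% and 37.5%, and the ETS site CCGGAAG in 20.0% and 7.83%. These matches are descriptions of the windows, and no binding was measured.

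Uniquely assigned gene counts per library ranged from 14833396 (mutant 2) to 23704638 (control 1). Counts of single members ranged from 122 to 8015 with a median of 1213.5, so counting error was small for most. The share of uniquely aligned reads outside annotated genes was 39.4% in mutant 1 and 22.1% to 24.9% in the others. Genes without any count numbered 1603 in mutant 1 and 5173 to 6053 in the others. The part of these features of mutant 1 in the results, also for members of low counts, was not tested. Without mutant 1 no member was called, in a fit that called 4 of all genes. Levels are given in CPM, counts scaled to the library total and to edgeR's TMM factors. Lmnb1 itself was measured at 20.6 and 18.8 CPM in controls 1 and 2 and at 14.1 and 10.1 CPM in mutants 1 and 2, with a log2 fold change of -0.72 ± 0.31 (SE) that did not pass the test (edgeR likelihood-ratio test, adjusted p = 0.195). Counts are summed over the whole gene, so transcripts without the deleted exon still count.

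The first question was how abundant each part of the transport machinery was. Per kb of exon, with all annotated exons of a gene merged, 3 soluble factors ranked highest. Levels per kb therefore depend on how many exons are annotated for a gene. Ran, the GTPase of the transport cycle, averaged 79.2 CPM per kb, followed by Kpna2 (importin alpha, which binds the import signal of cargo) at 38.0 and Kpnb1 (importin beta, the import carrier) at 36.1 CPM per kb. The lowest sample of Ran, 67.1 CPM per kb, lay above the highest samples of Kpna2 (44.0) and Kpnb1 (44.8), whose own ranges overlapped. Sec13, an outer ring member that is also part of the COPII vesicle coat, and Rangap1, which stimulates GTP hydrolysis by Ran, both averaged 35.3 CPM per kb, and their ranges overlapped with those of Kpna2 and Kpnb1. The median member averaged 9.80 CPM per kb. The lowest mean levels belonged to the membrane nucleoporin Pom121 (2.12 CPM per kb), the cytoplasmic side member Nupl2 (2.54) and the inner ring member Nup155 (2.86). The ranges of these 3 overlapped with each other. They also overlapped with those of Nup160 (2.31 to 3.89), Nup43 (2.21 to 4.21) and Nup37 (2.43 to 4.78), so the order at the low end is uncertain. Pom121 shared 11.9% of its exon bases with Nsun5 on the opposite strand, and since the strand setting of the counting was not stated, reads of the 2 genes cannot be told apart there.

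**Figure D1:**
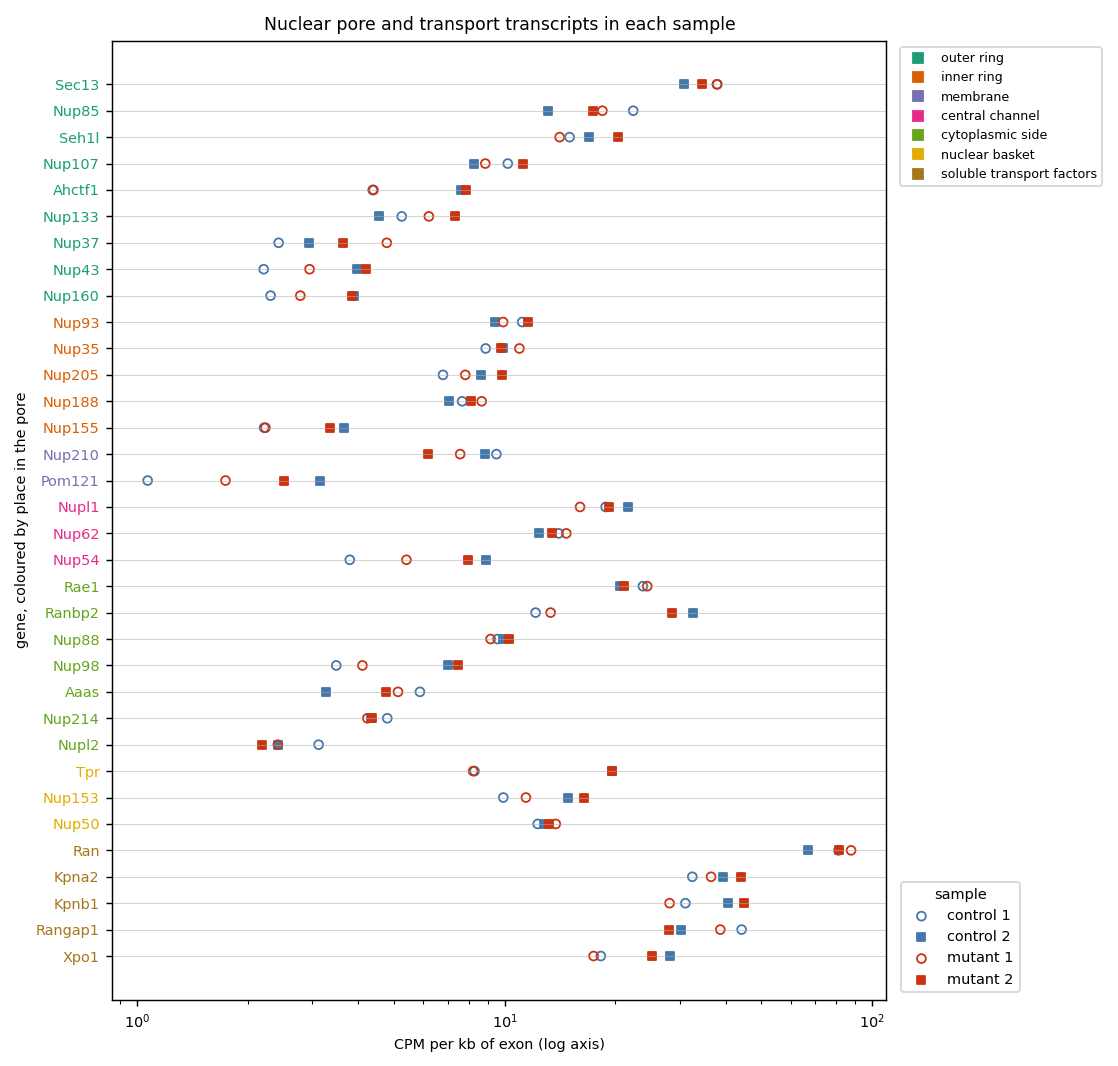
Level of each of 34 pore and transport genes in each sample, in CPM per kb of exon on a log axis, with genes coloured by place in the pore (open circles, experimental group 1; filled squares, group 2; blue, controls; red, mutants). Ran lies highest, Pom121 lowest, and for Ranbp2 and Tpr the samples of a group lie together, apart from those of the other group.

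The main question was whether loss of Lamin B1 changed these transcripts. None of the 34 was lower and none was higher in the mutants by the edgeR likelihood-ratio test at adjusted p under 0.05, while 5.58% of all 15438 tested genes were called (4.30% lower, 1.28% higher). By the quasi-likelihood test (3.96% of all genes called) the number of members called was also 0. DESeq2 gave an adjusted p for 29 members and called none of them (7.79% of 8811 genes called), and Nup37, Nup43, Pom121, Nupl2 and Aaas had none. At an unadjusted p under 0.05, 2 members (5.88%) stood out by the likelihood-ratio test, 2 by the quasi-likelihood test and 1 by DESeq2, against 15.9% of all tested genes by the first. Log2 fold changes of the members ranged from -0.42 (Nup210) to 0.65 (Nup37) with a median of 0.09, and the median of all tested genes was -0.01. Their absolute log2 fold change had a median of 0.136, against 0.255 for all tested genes. The tested genes include those just above the filter on low counts, and the sets were not matched for level.

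How large a change these data leave room for is given approximately by the Wald intervals. These take the fitted dispersion as known, and with 2 samples per genotype they may be too narrow. The SE of the log2 fold change had a median of 0.193 over members (range 0.159 to 0.428). The 95% interval lay within a 2-fold change in either direction for 31 of 34 members, the exceptions being Nup37, Nup43 and Nupl2, which had low counts. It lay within a 1.5-fold change for 25 members. In counts simulated for the comparison of mutant with control over 15438 genes, the test recovered 73% of changes of 1 log2 unit and 14% of changes of 0.5 among genes above 10 CPM, and 12.1% of its calls were false. Both mutants lay above both controls for 5 members (14.7%; Nup133, Nup37, Nup188, Nup50 and Ran), against 12.6% of all tested genes, and below both controls for 1 member (2.94%; Nup210), against 13.3%.

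The 9 outer ring members, which form the Y complex or dock it to chromatin, had log2 fold changes from 0.03 to 0.65 with a median of 0.12. All 9 were above 0 with both TMM and RLE scaling and 8 with offsets for GC content and length, whereas within experimental group 1 alone 5 of 9 were, and none was called. The direction also rested on single libraries: without mutant 2, 4 of 9 were above 0 (median -0.02), without control 1, 6 of 9 (median 0.24), and without control 2 or mutant 1, 7 of 9 (medians 0.41 and 0.34), in fits without the experimental group. Nup133, which links Y complexes head to tail, was measured at 36.9 and 32.0 CPM in controls 1 and 2 and at 43.8 and 51.4 CPM in mutants 1 and 2. Both mutants were thus above both controls, and the log2 fold change was 0.46 ± 0.20 (95% interval 0.08 to 0.85), which did not pass the test (edgeR, adjusted p = 0.179). Nup133 lies on chromosome 8 at 123897123 to 123949265 on the minus strand, and 6.56% of its exon bases overlap an antisense gene, Gm29773, for which no count was listed. Nup37 had the largest fold change of any member, 8.08 and 9.76 CPM in controls against 15.9 and 12.1 CPM in mutants. Its log2 fold change of 0.65 ± 0.38 (edgeR, adjusted p = 0.435) rested on few counts. The log2 ratio was 0.97 in group 1, which holds mutant 1, and 0.31 in group 2. Nup107, Nup160 and Nup85, core subunits of the complex, had log2 fold changes of 0.12, 0.13 and 0.06, and Ahctf1 (ELYS), which recruits the complex to chromatin, had 0.03.

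The 5 inner ring members, the scaffold that lines the channel, ranged from -0.06 to 0.20 in log2 fold change. Nup205, a large scaffold protein of this ring, was measured at 63.3 CPM in control 1 and 72.8 in mutant 1, and at 80.2 CPM in control 2 and 91.6 in mutant 2. The mutant was the higher in both experimental groups, but control 2 was above mutant 1, and the log2 fold change was 0.20 ± 0.16 (edgeR, adjusted p = 0.636). Nup155, which connects the inner ring to the membrane, was measured at 26.5 and 43.6 CPM in controls 1 and 2 and at 26.7 and 39.9 CPM in mutants 1 and 2. Its levels followed the experimental group and not the genotype, and the log2 fold change between genotypes was -0.06 ± 0.20 (edgeR, adjusted p = 0.952).

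The 2 membrane nucleoporins went in opposite directions and neither passed the test. Nup210, a transmembrane nucleoporin that faces the lumen of the nuclear envelope and varies in level between cell types, had the smallest p of all members. It was measured at 99.5 and 92.8 CPM in controls 1 and 2 and at 79.3 and 64.7 CPM in mutants 1 and 2, so that both mutants lay below both controls. The log2 fold change was -0.42 ± 0.16 (95% interval -0.74 to -0.11), with an adjusted p of 0.117 by the edgeR likelihood-ratio test, 0.123 by quasi-likelihood and 0.246 by DESeq2. Nup210 lies on chromosome 6 at 91013068 to 91116829 on the minus strand. Pom121, which takes part in the assembly of new pores, was measured at 5.96 and 17.5 CPM in controls 1 and 2 and at 9.71 and 14.0 CPM in mutants 1 and 2. The mutant was higher than its control in group 1 and lower in group 2, and the log2 fold change of 0.18 ± 0.40 was smaller than its error (edgeR, adjusted p = 0.913). Ndc1, the third membrane nucleoporin, listed as Tmem48, was measured at 13.6 and 12.9 CPM in controls and 12.7 and 14.0 CPM in mutants (log2 fold change 0.01, edgeR adjusted p = 0.997).

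The 3 central channel members, whose repeats form the permeability barrier, had log2 fold changes of 0.09 (Nup62), 0.17 (Nup54) and -0.20 (Nupl1, also called Nup58). Nupl1 was measured at 67.9 CPM in control 1 and 57.8 in mutant 1, and at 78.2 CPM in control 2 and 69.5 in mutant 2. The mutant was the lower in both experimental groups, and the log2 fold change of -0.20 ± 0.16 did not pass (edgeR, adjusted p = 0.638). In the annotation, 48.8% of the exon bases of Nupl1 are shared on the same strand with the gene model Gm49336, for which no count was listed, so its count is uncertain.

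The 7 members of the cytoplasmic side, where export complexes are taken apart, had a median log2 fold change of -0.00 and ranged from -0.26 (Nupl2) to 0.16 (Nup98). Nup98, whose gene encodes both the repeat protein Nup98 and the scaffold protein Nup96, was measured at 43.9 CPM in control 1 and 51.7 in mutant 1, and at 88.3 CPM in control 2 and 94.2 in mutant 2. Its levels fell apart by experimental group, and the difference between genotypes was 0.16 ± 0.17 on the log2 scale (edgeR, adjusted p = 0.730). Nupl2, which takes part in mRNA export, was measured at 11.8 and 9.10 CPM in controls and 9.11 and 8.27 CPM in mutants, with overlapping groups and a log2 fold change of -0.26 ± 0.41 (edgeR, adjusted p = 0.862). Ranbp2 (Nup358), the main protein of the cytoplasmic filaments, had a log2 fold change of -0.03, and 12 annotated pseudogenes carry its name, so reads shared with them may have been set aside in counting.

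The 3 members of the nuclear basket, the side of the pore that meets the lamina, had log2 fold changes of 0.17 (Nup153), -0.01 (Tpr) and 0.10 (Nup50). Nup153, which binds lamins, was measured at 69.6 CPM in control 1 and 80.2 in mutant 1, and at 104 CPM in control 2 and 115 in mutant 2. The mutant was the higher in both experimental groups by less than the difference between the groups, and its log2 fold change was 0.17 ± 0.17 (edgeR, adjusted p = 0.726). Tpr, which builds the filaments of the basket, was measured at 87.0 and 86.2 CPM in control 1 and mutant 1 and at 205 and 206 CPM in control 2 and mutant 2, so that control and mutant of the same group were nearly equal.

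The 5 soluble factors had a median log2 fold change of -0.00 and ranged from -0.15 (Rangap1) to 0.19 (Ran). Ran was measured at 214 and 177 CPM in controls 1 and 2 and at 232 and 215 CPM in mutants 1 and 2, with mutant 2 barely above control 1. Its log2 fold change was 0.19 ± 0.21 (edgeR, adjusted p = 0.756). Kpna2 was measured at 93.2 and 113 CPM in controls and at 105 and 126 CPM in mutants, and the mutant was the higher in both experimental groups (log2 fold change 0.17 ± 0.18, edgeR adjusted p = 0.748). Kpnb1 was measured at 205 and 268 CPM in controls and at 185 and 295 CPM in mutants, with opposite directions in the 2 groups and a log2 fold change of -0.00 ± 0.22 (edgeR, adjusted p = 0.999). Xpo1, the main protein exporter, had a log2 fold change of -0.11.

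Another 57 symbols of nuclear transport were listed, comprising further importins and exportins, Ran regulators, mRNA export factors, torsins and pore-linked genes such as Nup210l and Tmem33. Some were other names of members, as Tmem48 is for Ndc1 and Nup58 for Nupl1. Nup58, Nup42 and Nup84 were not found. Of these, 54 were in the tables and 49 were tested, and none was called lower or higher (smallest adjusted p = 0.325, Kpna1, edgeR). At an unadjusted p under 0.05 the edgeR likelihood-ratio test found 0, quasi-likelihood 2 and DESeq2 0. Their median log2 fold change was -0.06, with 16 above and 33 below 0. Rcc1, the exchange factor that loads Ran with GTP on chromatin, had a log2 fold change of 0.03, Cse1l, which returns importin alpha to the cytoplasm, 0.02, Ranbp1, which assists GTP hydrolysis, 0.05, and Nxf1, the main mRNA exporter, -0.12. Nutf2, which returns Ran to the nucleus, had -0.47 ± 0.45 (edgeR, adjusted p = 0.710).

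The cell types in the samples were followed by marker lists, since in bulk RNA fewer cells of a type and less RNA per cell cannot be told apart. All 8 markers of mature olfactory neurons were called lower in the mutants by the edgeR likelihood-ratio test (median log2 fold change -1.35). Among them was Omp, the olfactory marker protein (-1.35, edgeR adjusted p = 0.00714). By DESeq2, Omp (adjusted p = 0.0605), Gnal, Cnga4, Ano2 and Stoml3 were not called, whereas Adcy3, Cnga2 and Gng13 were. The summed level of the 8 markers was 16326 and 7027 CPM in controls 1 and 2 and 8995 and 2000 CPM in mutants 1 and 2. This sum was lower in the mutant within each experimental group, but mutant 1 lay above control 2. Of 15 markers of cycling cells, 8 were higher and none lower (median 0.91), and the summed level was 314 to 339 CPM in controls and 533 to 597 CPM in mutants. Among 8 immature neuron markers 1 was lower, among 8 progenitor and among 8 horizontal basal cell markers 2 each were higher, among 7 sustentacular and 8 leukocyte markers none was called, and among 8 ensheathing glia markers 2 were lower. Over all tested genes, 4.30% were called lower and 1.28% higher by the same edgeR test. The leukocyte sum was 576 and 792 CPM in controls 1 and 2 and 323 and 814 CPM in mutants 1 and 2, much of it from Lyz2. The other 7 leukocyte markers were all highest in control 1, with sums of 352 and 99.0 CPM in controls 1 and 2 and 169 and 230.3 CPM in mutants 1 and 2. The sum of ensheathing glia was also highest in control 1, with 378 and 158 CPM in controls 1 and 2 and 117 and 118 CPM in mutants 1 and 2. Without control 1 no member was called, in a fit that called 34 of all genes. The globin genes Hba-a1, Hba-a2 and Hbb-b2 had no count. Against these shifts, the 34 pore and transport genes summed to 2351 and 2883 CPM in controls 1 and 2 and to 2352 and 2970 CPM in mutants 1 and 2. The sums were nearly equal within each experimental group, and their order followed the group. The part of the marker shifts in the members' values was not tested.

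**Figure D2:**
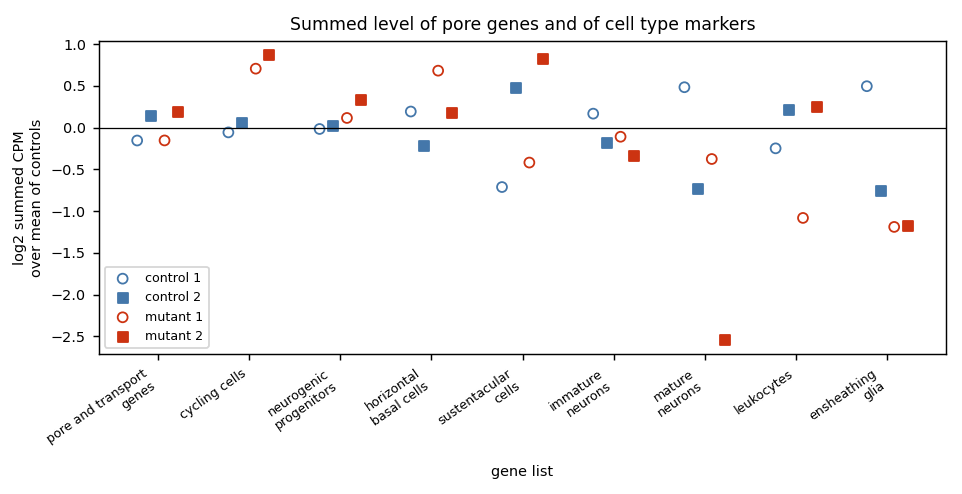
Summed CPM of the pore and transport genes and of cell type marker lists in each sample, as log2 of the sum over the mean of the 2 controls (open circles, experimental group 1; filled squares, group 2; blue, controls; red, mutants). The sums of pore and transport genes in control and mutant of the same group nearly coincide. Those of mature neurons are lower in the mutant within each group, but mutant 1 lies above control 2. Those of cycling cells are higher in both mutants than in both controls.

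The second comparison was between the experimental groups, which was independent of genotype because each group held 1 control and 1 mutant. Of the 34 members, 10 were higher in group 2 than in group 1 (29.4%, against 17.7% of all tested genes), and 1 was lower (2.94%, against 14.0%), while 31.6% of all genes were called in either direction. All 11 had the same direction within the controls and within the mutants. For 24 of 34 members (70.6%, against 68.3% of all tested genes) the difference between groups was larger in size than that between genotypes. Its absolute value had a median of 0.305 log2 units against 0.497 for all tested genes, again not matched for level. Both groups received the same labelled dose of methimazole. The study's methods add that sample preparation and sequencing were also shared within a group. A figure legend of the study lists litter, batch and treatment as differences between groups. The differences in treatment, parents, age and sex that the design text gives, and those of batch, cannot be told apart. Cell type markers also differed between the groups. Of 8 mature neuron markers, 7 were lower in group 2 and none higher (median -1.57 log2 units). Of 7 sustentacular markers, 4 were higher in group 2 and none lower (median 0.79). Sustentacular sums were 3269 and 4006 CPM in control 1 and mutant 1 and 7443 and 9437 CPM in control 2 and mutant 2. The part of these marker shifts in the members' group differences was not tested.

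The largest differences were those of Ranbp2, of the cytoplasmic filaments, and Tpr, of the basket, followed by Pom121. Ranbp2, on chromosome 10 at 58446920 to 58494356 on the plus strand, was measured at 142 and 157 CPM in control 1 and mutant 1 and at 382 and 334 CPM in control 2 and mutant 2. The groups did not overlap, and group 2 was higher by 1.26 ± 0.22 log2 units (edgeR, adjusted p = 6.89e-07). For Tpr, on chromosome 1 at 150392838 to 150449935 on the plus strand, the levels given above correspond to a difference of 1.25 ± 0.19 (edgeR, adjusted p = 2.77e-09), with 1.24 within controls and 1.25 within mutants. Nup98 was higher by 0.94 ± 0.17 (edgeR, adjusted p = 3.74e-07).

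Of the scaffold, Ahctf1 was measured at 66.2 and 66.5 CPM in the samples of group 1 and at 115 and 119 CPM in those of group 2, a difference of 0.82 ± 0.17 log2 units (edgeR, adjusted p = 2.98e-05). Nup155 was higher by 0.65 and Nup160 by 0.61 log2 units (edgeR, adjusted p = 0.00644 and 0.0293). In the channel, Nup54 was measured at 12.6 and 18.0 CPM in group 1 and at 29.6 and 26.5 CPM in group 2, a difference of 0.89 (edgeR, adjusted p = 0.00807). Pom121 was higher by 1.04, with 1.54 within controls but 0.53 within mutants (edgeR, adjusted p = 0.0344). Nup153 and Xpo1 were higher by 0.55 and 0.58 (edgeR, adjusted p = 0.00680 and 0.0127). The member that was lower in group 2 was Rangap1, with 215 and 188 CPM in group 1 against 147 and 136 CPM in group 2 and a difference of -0.50 (edgeR, adjusted p = 0.0356). By DESeq2, Nup155, Nup160 and Pom121 were not called between groups (adjusted p = 0.0675, 0.128 and 0.0952). Kpnb1, not called by the edgeR likelihood-ratio test, was called higher in group 2 by DESeq2 (adjusted p = 0.00239).

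**Figure D3:**
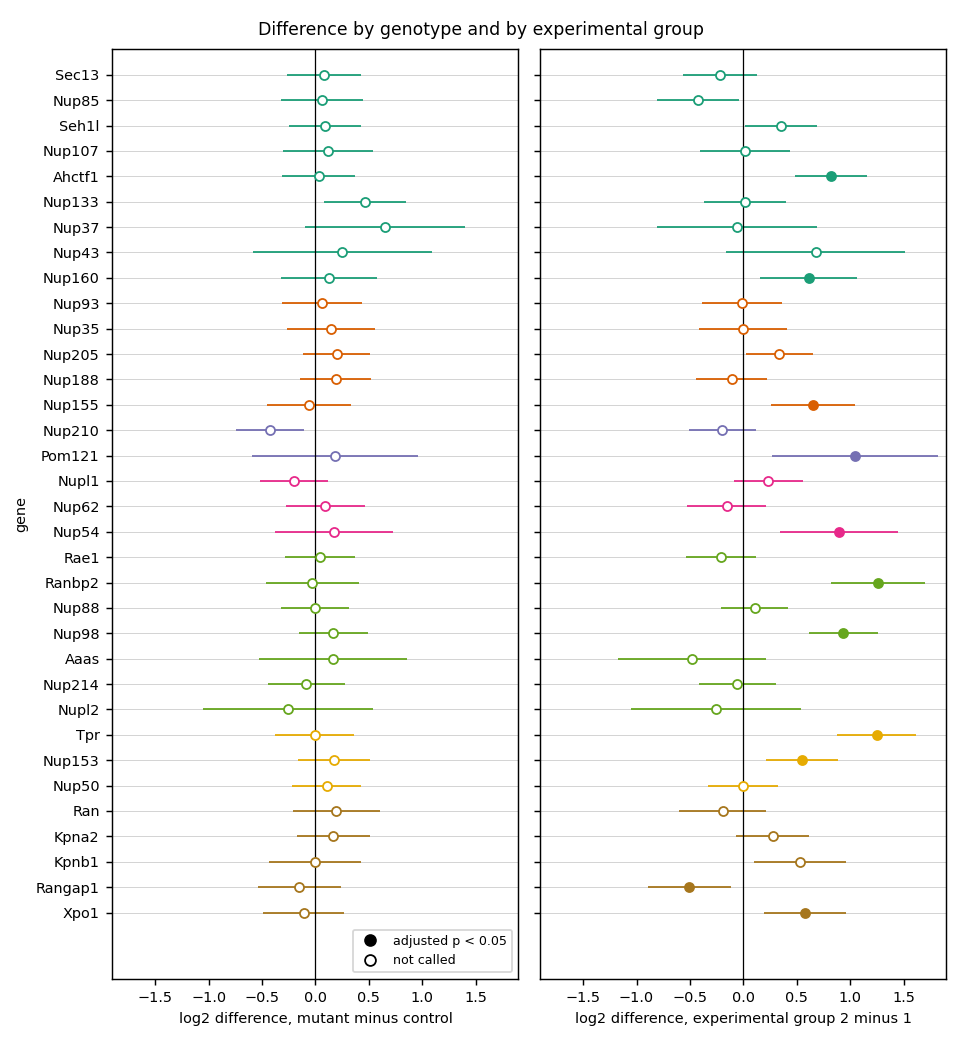
Log2 difference between mutants and controls (left) and between experimental groups 2 and 1 (right) for 34 members, from the same edgeR model with 95% intervals, filled where adjusted p was under 0.05. No symbol is filled on the left and 11 are on the right, 10 of them above 0.

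Exon length, from all annotated exons of a gene merged, and GC content of the longest transcript were compared with the difference between experimental groups. The 10 members that were higher in group 2 had a median exon length of 9628.5 bp (range 3328 to 15116) and a median GC content of 45.2% (range 40.4% to 57.6%), and the 23 that were not called had medians of 3768 bp and 48.6%. Over the 34 members the difference between groups had a Spearman correlation of -0.63 with GC content (Pearson -0.50) and of 0.51 with log length (Pearson 0.53). Over 15257 tested genes with annotation the Spearman values were -0.38 and 0.26, so the relation was present in all genes and was not particular to the members. These correlations are across genes measured in the same 4 libraries, which differ in non-unique alignments by group (67710764 and 62182762 in group 1, 10308536 and 6757456 in group 2), and no test is attached. The difference between genotypes had a Spearman correlation of -0.04 with GC content and -0.33 with log length over members.

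With offsets for GC content and length in the same model, an alternative chosen after seeing the data, 5 members were higher in group 2 (14.7%, against 13.3% of all genes) and none was lower (8.63% of all genes). All 5 had been called without the offsets: Pom121 (1.35 log2 units), Tpr (0.80), Nup54 (0.75), Ranbp2 (0.75) and Nup98 (0.63). Ahctf1, Nup155, Nup160, Xpo1, Nup153 and Rangap1 were no longer called. With these offsets the number called between genotypes was again 0. Among the 49 other transport genes 13 were higher (26.5%, against 17.7% of all genes) and 3 lower (6.12%, against 14.0%) in group 2 without offsets, with the importins Ipo7 (1.28) and Kpna3 (1.02) among those higher and Ipo13 (-0.59) among those lower.

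**Figure D4:**
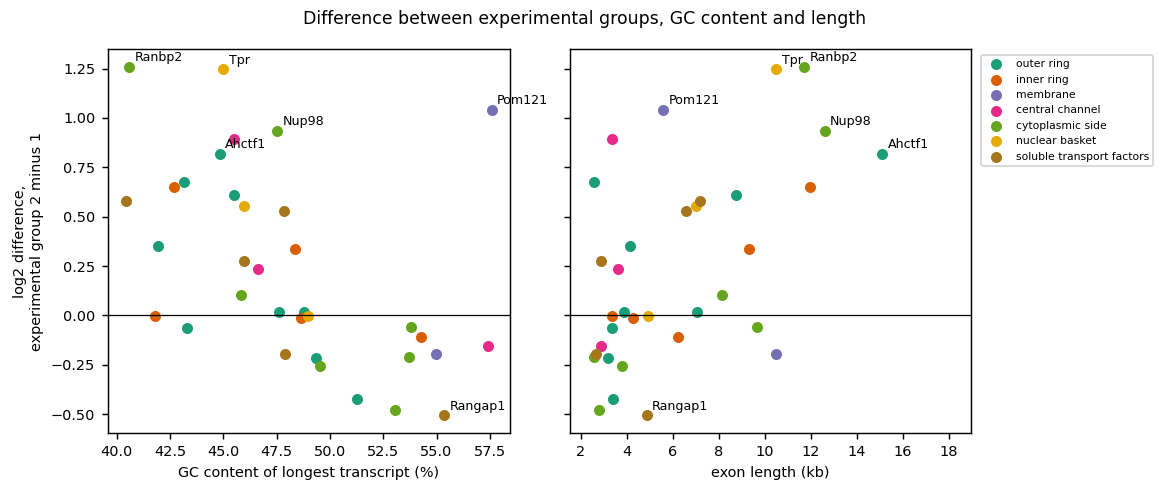
Log2 difference between experimental groups 2 and 1 against the GC content of the longest transcript (left, percent) and against exon length (right, kb) for 34 members coloured by place in the pore. Ranbp2 and Tpr are long and of low GC content and lie highest, while Pom121, of 57.6% GC, lies apart from the trend.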

How the data were processed

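RNA was measured in sorted olfactory epithelium cells of 4 mice (2 control, 2 mutant), and groups were taken from the labels. The authors deposited raw counts per gene symbol. Per the study's methods they depleted ribosomal RNA, removed remaining ribosomal reads with Bowtie2, aligned single-end reads to mm10 with TopHat2 and counted reads with HTSeq. Non-unique alignments were tallied apart from the genes. The strand setting of HTSeq is not given in the sources used here. From the 5 tally lines per file no count entered a library size or test. The library totals and the number of tested genes printed in the study's methods differ from those here.

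The 15438 genes above 1 CPM in 2 or more samples entered the test, which was run in edgeR 4.0.16 under R 4.3.3. TMM factors, tagwise dispersions and a likelihood-ratio test on a model of genotype and experimental group were used, as in the study's methods, with Benjamini-Hochberg adjustment over all tested genes at 0.05. Error values after ± are Wald SE. Experimental group entered as a replicate block, since the design text says that a control and a mutant of the same group shared parents and handling. Samples of the same group deviated together (r = 0.522 across 15438 genes). Each library had 1 mouse. The p-values rest on the spread left after the block, with dispersions partly shared across genes, and not on the full spread between mice. Ratios within a group used log2 CPM (prior count 2) and have no test. Gene totals of 14833396 to 23704638 put the limit that 3 counts allow at 0.127 to 0.202 CPM, for counting error only. Exon lengths, GC content and coordinates came from GENCODE annotation of GRCm38, the same assembly as mm10, with 98.0% of symbols matched.

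Members and lists were chosen with earlier results of these data known. Members given with full values were those with the smallest p in each place of the pore and those with the 3 highest and 3 lowest levels per kb. Members with a call between experimental groups, Nup37 (the largest fold change) and the motifs were added after their values were seen. The tests were tried on simulated data. Alternatives were quasi-likelihood, DESeq2 1.42.0, no block, RLE factors, other filters, thinning to the smallest library, leaving out samples, no genotype term, and GC and length offsets.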

Additional observations from a re-analysis of the deposited data

Results flagged for a closer look

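For 16 of 34 members the log2 ratio of mutant to control had opposite signs in the 2 experimental groups, which drew attention to them. Each ratio rests on 1 mutant and 1 control, and the difference between the groups was not tested. The ratio in group 2 minus that in group 1 was 0.73 for Aaas, 0.68 for Nup85, 0.65 for Nup107, 0.47 for Nup93, 0.35 for Seh1l, 0.28 for Kpnb1, 0.19 for Nup214, 0.17 for Sec13, 0.12 for Nup88 and 0.013 for Tpr. It was -1.01 for Pom121, -0.67 for Nup54, -0.33 for Ranbp2, -0.32 for Nup35, -0.28 for Nup160 and -0.14 for Nup155.

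Outside the gene counts, mutant 1 had 39.4% of its uniquely aligned reads outside annotated genes, above the 23.8% and 24.9% of the controls.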

How the results depend on the processing

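No member and no other transport gene was called between genotypes under any alternative with a test. The smallest adjusted p over members ranged from 0.103 to 1.000. Without the replicate block the counts were 0 lower and 0 higher, with a median log2 fold change of 0.07. That fit called only 6 of all genes, and fits without 1 sample called 4 to 34, so both say little about the members. Leave-out fits had no block, since 3 samples leave no residual degrees of freedom with it, and the lone sample was assumed to vary like the others. Each experimental group alone gave values without a test.

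When samples were left out in turn, the median of members ranged from -0.045 to 0.25 (0.09 with all samples), and it was below 0 only without mutant 2. Over all 34 members, 21 changed sign in at least 1 of the 4 fits without a sample (8 to 11 per fit). Among members named for their p or level per kb, these were Nup153 (-0.087 to 0.53), Nup98 (-0.32 to 0.77), Kpnb1 (-0.32 to 0.31), Nup155 (-0.38 to 0.37) and Pom121 (-0.56 to 1.03). Members added after their values were seen are not in this list. Kpnb1, near 0, was also positive with DESeq2 (0.0068), no block (0.024), RLE factors (0.0088), no filter (0.024) and a filter in all 4 samples (0.0027). The median of all genes was 0.14 without the filter and 0.13 with DESeq2, which included genes of low counts.

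Between experimental groups, members higher numbered 8 and lower 1 by DESeq2, and 11 and 1 by quasi-likelihood. Members higher numbered 5 and lower 0 without the genotype term and again with GC and length offsets, and members lower numbered 0 with no filter. The cause was not tested. Depth limits Nup37, Nup43 and Nupl2, whose intervals reach past 2-fold.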
